A study of Mus musculus with 6 samples.

Results

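The 7 genes described here, Il7, Kitl, Il15, Flt3l, Tslp, Ly75 and Tbata, were chosen by name as factors of the thymic niche, the stromal surroundings in which T cells develop. They are 7 of the 27597 genes read by the arrays, and 6 of them were found under these names in the array files. Tbata was found through its transcripts, because the array design carries its older name 1700021K02Rik. Il7, Tslp and Il15 encode secreted cytokines, Kitl and Flt3l encode growth factors for blood cell progenitors, and Ly75 and Tbata encode proteins of the cells that make such factors.

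Thymocytes depend on signals from the epithelium around them. Interleukin 7 keeps early T cell progenitors alive and dividing, Kit ligand and Flt3 ligand act on progenitors through receptor tyrosine kinases, and interleukin 15 serves natural killer cells, memory-type CD8+ T cells and other innate-like lymphocytes. The outer zone of the thymus, the cortex, is where early T cells expand and are tested for a working receptor, and the inner zone, the medulla, is where they meet tissue antigens. Ly75, known as CD205 or DEC-205, is an uptake receptor of dendritic cells that also marks cortical epithelium.

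The study measured RNA of sorted epithelial cells from C57BL/6 mice on 6 single-colour Agilent arrays, 3 for each organ. Thymic cells (ThymusEC), labelled as from the thymic medulla, were dissociated with collagenase, dispase and DNAse and sorted as Epcam+ UEA1+ CD45-, where UEA1 is a lectin that binds medullary epithelium and CD45 is a surface protein of blood cells. Thyroid cells (ThyroidEC) were freed with collagenase and DNAse and sorted as Epcam+ CD45-. In both, cells taking up Fluorogold were removed as dead. Thymic replicates 1 and 2 each came from 6 pooled thymi, thymic replicate 3 from 2, and every thyroid replicate from 20 pooled thyroids. The submitters call the replicates independent. No age is given in the labels, and the cells carry no stated treatment or engineered allele.

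Values are log2 of the background-subtracted signal minus the 75th percentile of the same array, so that 0 is the signal under which 75% of that array's probes lie. A value belongs to its probe, and probes of different genes bind with different strength, so levels are compared between the groups and never between genes. Above background means the scanner software's flag for a spot well above its background. That 75th percentile lay between 446 and 761 signal units, no spot was saturated, and the share of probes above background was 78.4% to 81.0% for thymic arrays, larger than the 65.3% to 72.7% for thyroid arrays. With 3 arrays a group, their number limits the precision.

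Marker genes were set against the labels first, with higher meaning an adjusted p under 0.05 in the fit given below. That threshold called 39.3% of all genes higher in thymic and 30.5% higher in thyroid cells. Of 12 markers of medullary epithelium, 11 were higher in thymic cells, among them Aire, the regulator of tissue antigen expression, at 6.13 ± 0.16 (SD, n = 3) against -5.95 ± 0.45. The thyroid arrays carried the hormone precursor gene Tg at 9.04 ± 0.24 against -1.74 ± 0.09. All 12 endothelial markers were also higher there, and their summed signal, in units of the 75th percentile, was 502 to 734 on the thyroid and 4.13 to 4.15 on the thymic arrays, with 11 of the 12 above background on all thymic arrays and Clec14a on none. Of 10 myeloid and dendritic markers tested, 7 were higher in thymic cells, and their summed signal was 99.2 to 109 on the thymic and 2.74 to 3.69 on the thyroid arrays. Nearly all of that gap was Lyz2, a lysozyme gene of macrophages, at 6.68 ± 0.07 against -0.06 ± 0.62, and without it the sums overlapped, at 2.07 to 2.29 against 2.15 to 2.54. The summed signal of 11 thymocyte markers was 3.88 to 7.53 against 1.97 to 2.07, that of 8 B cell markers 4.82 to 5.68 against 1.65 to 2.80, and that of 11 fibroblast and mural cell markers 32.7 to 49.2 against 11.8 to 34.5. The part of these other cell types in the results below was not tested. In RNA of whole sorts, fewer cells of a type and less RNA per cell cannot be told apart.

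Of the 7 genes, 6 were higher in thymic cells and Kitl was higher in thyroid cells, at an adjusted p under 0.05 by limma with the Benjamini-Hochberg method over 21381 genes. The organs differ widely, and the same threshold called 39.3% of all genes higher in thymic and 30.5% higher in thyroid cells. The thymic values of those 6 all lay over their thyroid values, as they did for 42.1% of all genes, and the thyroid values of Kitl all lay over its thymic ones, as for 34.3% of genes. Median differences, thymic minus thyroid, were 1.91 on the log2 scale over the 7 and 0.10 over all genes. The sizes spread widely, from about 2-fold for Il15 to over 100-fold for Il7 and Tbata.

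**Figure D1:**
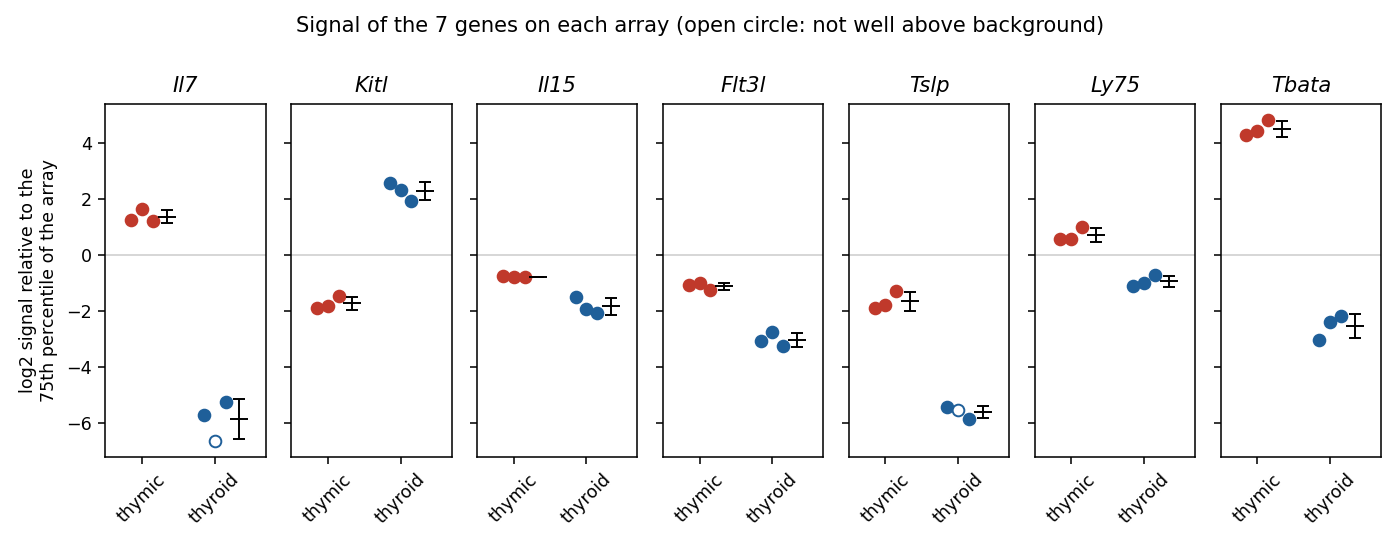
Signal of each gene's main probe on every array, as log2 relative to the array's 75th percentile (y axis), with thymic arrays in red and thyroid arrays in blue. Points are replicates 1 to 3 from left to right, the cross and bars are the mean ± SD (n = 3), and an open circle is a spot not well above background. Kitl is the gene whose thyroid points, 1.94 to 2.59, sit over its thymic points, -1.89 to -1.47.

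Il7 encodes the cytokine that early thymocytes need to survive. Its main probe, at chr3:7556280-7556339 on the minus strand of mm8, stood at 1.27, 1.63 and 1.21 on thymic replicates 1 to 3 and at -5.71, -6.65 and -5.25 on the thyroid replicates. In signal units the thymic spots read 1742, 2044 and 1476, and the thyroid spots 14.5, 4.44 and 17.6. All thymic arrays therefore gave a clear signal, while the thyroid spots were faint, and that of thyroid replicate 2 was not above background. Il7 was higher in thymic cells by 7.25 ± 0.35 (SE, n = 3 and 3; 95% interval 6.41 to 8.08), a 152-fold difference (adjusted p = 4.39e-06, limma with Benjamini-Hochberg). Of the genes tested, 98.2% had a smaller difference in either direction. With the normexp background correction, which lifts faint spots by an offset of 50, it was 22.2-fold.

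A second Il7 probe is printed because its letters cross a splice junction. Its 60 bases span 1104 bases of mm8, chr3:7559196-7560299 on the minus strand, so they join stretches that lie apart in the gene. It is given in lower case, 5′ to 3′.
Il7 junction probe: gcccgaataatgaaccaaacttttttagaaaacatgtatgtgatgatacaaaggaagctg
This probe read -0.59, -0.10 and -0.28 in the thymic samples, far over its thyroid values of -7.89, -7.00 and -7.66. No thyroid array was above background there, so only a bound holds for the thyroid cells. The thymic excess of Il7 was at least 50.5-fold by this probe. The limma fit over 32347 probes gave a difference of 7.19, which uses thyroid values below background. This probe entered the fit through the thymic arrays alone, so its direction was set in advance and no p-value is given. The bound sets the thymic mean against, per thyroid array, the higher of the lowest signal above background and the probe's own. The third Il7 probe, with only 25% G and C, at chr3:7553072-7553131, was above background on 2 thymic arrays and no thyroid array and was not tested. Its values of -5.30, -6.30 and -4.77 still lay over the thyroid values of -7.12, -7.54 and -8.55.

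Il15 encodes the cytokine that binds Il15ra and is handed to lymphocytes carrying Il2rb and Il2rg. It was the least different of the 7. The main probe, at chr8:85230251-85230310 on the minus strand, is printed because this gene's small difference rests on it and on one other probe.
Il15 probe: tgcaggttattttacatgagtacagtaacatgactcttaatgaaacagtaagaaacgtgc
It read -0.77, -0.79 and -0.79 in the thymic samples, which hardly differed among themselves, and -1.49, -1.95 and -2.09 in the thyroid samples. Il15 was higher in thymic cells by 1.06 ± 0.17 (SE), or 2.08-fold (adjusted p = 0.00131, limma with Benjamini-Hochberg). The other probe, at chr8:85239084-85239143, gave 2.15-fold (adjusted p = 1.16e-04 over probes). With arrays centred on their medians, a scaling that moved the median difference of all genes by -0.54, the Il15 difference was 0.52 (adjusted p = 0.0336).

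Tslp encodes thymic stromal lymphopoietin, an epithelial cytokine that shares the Il7r chain with interleukin 7. Its only probe, at chr18:32962241-32962300 on the plus strand, read -1.90, -1.79 and -1.27 in thymic cells and -5.43, -5.55 and -5.86 in thyroid cells. All thymic values were thus higher, and thyroid replicate 2 was not above background. The difference was 3.96 ± 0.20 (SE), or 15.6-fold (adjusted p = 5.64e-06, limma with Benjamini-Hochberg). Its size depended on the processing, at 3.52-fold with normexp and 9.45-fold with quantile normalization.

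Kitl encodes Kit ligand, or stem cell factor, which supports the earliest thymocyte progenitors, germ cells, melanocytes and mast cells. It was the only one of the 7 that was higher in thyroid cells. The arrays carry 10 spots of its main probe, at chr10:99529535-99529594 on the plus strand, and their averages read -1.89, -1.82 and -1.47 in thymic and 2.59, 2.33 and 1.94 in thyroid cells. In signal units these were 194, 186 and 230 against 4588, 2251 and 2570, all above background. The gap was far wider than the scatter on an array, where the SD of the 10 spots, or of 9 on thymic replicate 3, was 0.04 to 0.09 on the log2 scale. Kitl was lower in thymic cells by a log2 difference of -4.02 ± 0.20 (SE), which makes it 16.2-fold higher in thyroid cells (adjusted p = 5.20e-06, limma with Benjamini-Hochberg).

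**Figure D2:**
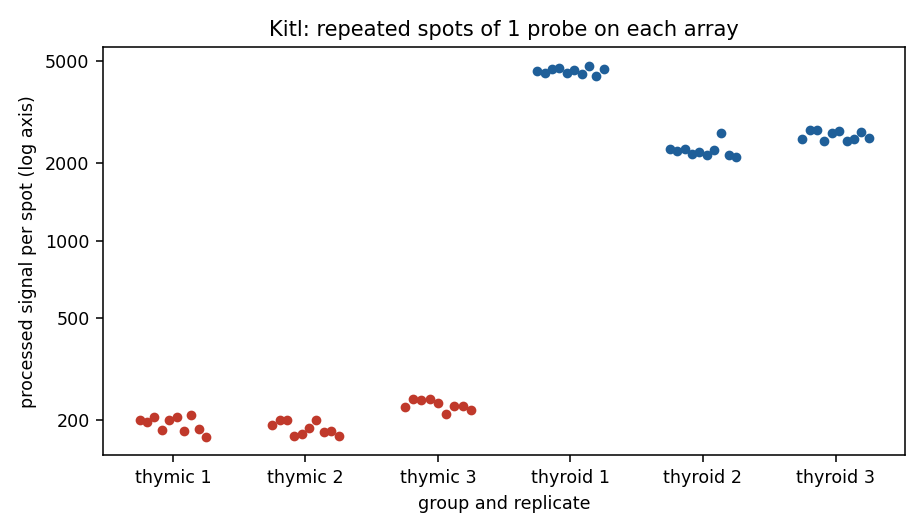
Processed signal (y axis, log scale) of every spot of the main Kitl probe on each array, 10 a sample and 9 on thymic replicate 3, with thymic arrays in red and thyroid arrays in blue. Within an array the spots lie in a narrow band (SD 0.04 to 0.09 on the log2 scale), and the thyroid bands, averaging 2251 to 4588, lie apart from the thymic ones, averaging 186 to 230.

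The second Kitl probe lies further upstream in the gene and is printed because it repeats the reversed direction with other letters. Its position is chr10:99506434-99506493 on the plus strand.
Kitl second probe: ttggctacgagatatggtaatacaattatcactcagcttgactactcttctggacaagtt
It read -3.73, -3.60 and -2.88 in thymic and 0.58, 0.42 and -0.02 in thyroid cells, a difference of -3.73 ± 0.27 (SE; adjusted p = 2.17e-05 over probes, limma with Benjamini-Hochberg), or 13.3-fold. On both probes thymic replicate 3 was the highest of the thymic arrays. The endothelial markers moved with Kitl, as given above, and their part in its difference was not tested.

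Flt3l encodes the ligand of Flt3, a receptor of lymphoid progenitors and dendritic cell precursors. Its single probe, at chr7:45001954-45002013 on the minus strand, is printed because the gene is known here by these 60 bases alone.
Flt3l probe: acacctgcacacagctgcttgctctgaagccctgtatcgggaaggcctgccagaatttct
Thymic values were -1.07, -1.01 and -1.26 and thyroid values -3.08, -2.75 and -3.26, all above background and without overlap. The difference was 1.91 ± 0.16 (SE), or 3.77-fold higher in thymic cells (adjusted p = 5.17e-05, limma with Benjamini-Hochberg), and 2.49-fold with normexp.

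Ly75, the uptake receptor described above, belongs to the mannose receptor family. Its main probe, at chr2:60093144-60093203 on the minus strand, read 0.57, 0.59 and 0.99 in thymic and -1.12, -0.98 and -0.72 in thyroid cells. The thyroid cells thus also gave a clear signal on every array. Ly75 was higher in thymic cells by 1.65 ± 0.17 (SE), or 3.15-fold (adjusted p = 1.38e-04, limma with Benjamini-Hochberg), and its second probe, at chr2:60140083-60140142, gave 2.99-fold. Of the myeloid and dendritic markers, 7 of 10 were also higher in thymic cells, with the sums given above, and their part in the Ly75 difference was not tested.

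Tbata encodes a protein of thymus, brain and testis that is known to restrain the growth of thymic epithelial cells by way of the NEDD8 pathway. Its probes are printed together because the array files list different numbers of its transcripts for them. Of the gene's 6 RefSeq transcripts, 4 are listed for the first probe and 2 for the second. Whether these sets overlap was not examined. The probes lie at chr10:60575869-60575928 and chr10:60580659-60580718, both on the plus strand.
Tbata first probe: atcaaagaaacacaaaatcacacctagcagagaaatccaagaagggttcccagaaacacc
Tbata second probe: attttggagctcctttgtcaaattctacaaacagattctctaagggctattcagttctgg
The first probe read 4.28, 4.45 and 4.84 in thymic and -3.04, -2.40 and -2.19 in thyroid cells. In signal units these were 14001, 14382 and 18265 against 92.5, 84.8 and 146, so the thyroid cells gave a weak but measured signal on all 3 arrays. Tbata was 134-fold higher in thymic cells, a difference of 7.07 ± 0.26 (SE; adjusted p = 1.42e-06, limma with Benjamini-Hochberg). The second probe read 1.93, 1.62 and 2.15 against -5.02, -4.70 and -4.34, and its difference of 6.58 ± 0.22 (SE) amounted to 95.9-fold.

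**Figure D3:**
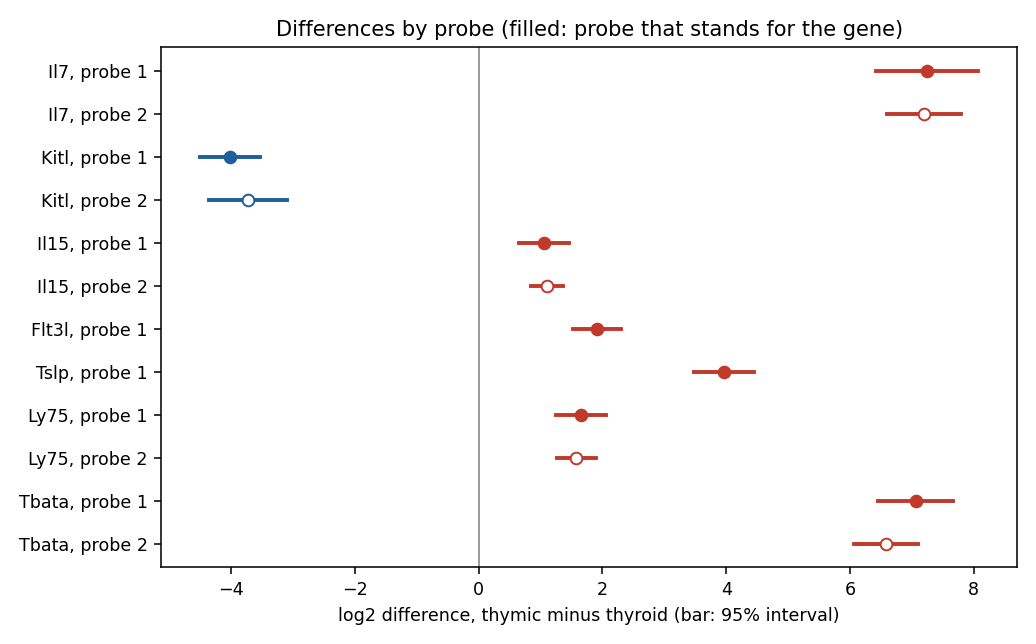
Log2 difference, thymic minus thyroid (x axis), of each tested probe of the 7 genes (y axis), with 95% intervals from the fit over all probes. Filled points mark the probe that stands for the gene, red is higher in thymic and blue higher in thyroid cells. Probes of 1 gene lie close together, as at 7.07 and 6.58 for Tbata, and the Il7 probe left untested is not drawn.

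Where a gene had several tested probes, they fell on the same side in every case. All 12 tested probes of the 7 genes passed the threshold, 10 higher in thymic and 2, both of Kitl, higher in thyroid samples, where 37.3% and 31.4% of all probes passed. The tested probes of Il7 and Tslp were above background on every array of the thymic group alone, which is what let them be tested. For the Il7 junction probe, above background on no thyroid array, this set the direction in advance. In the processing as reported, the 95% intervals of the gene differences formed bands that overlap inside and not between. Il7 (6.41 to 8.08) lay with Tbata (6.45 to 7.68). Well under them, Flt3l (1.53 to 2.30) lay with Ly75 (1.25 to 2.06), whose interval also met that of Il15 (0.65 to 1.47). Tslp, at 3.47 to 4.45, stood between these bands. These bands depended on the processing. With normexp, Il7 at 4.47 ± 0.16 (SE) lay apart from Tbata at 6.50 ± 0.22. Tslp fell there to 1.82 ± 0.19, near Flt3l at 1.31 ± 0.15. With quantile normalization Il7 (6.70) stayed near Tbata (6.98), and Tslp (3.24) stayed well under both. Among the thymic arrays, replicate 3 was the highest for Kitl, Tslp, Ly75 and Tbata and the lowest for Il7 and Flt3l, by their main probes. The other Il7 probes differed, with replicate 1 lowest on the junction probe (-0.59) and replicate 3 highest on the third (-4.77). Some cortical genes rose over the same arrays. Psmb11, a proteasome subunit of cortical epithelium, read 0.80, 1.82 and 2.75 on thymic replicates 1 to 3. Prss16, a cortical protease, read 2.28, 3.35 and 4.07. Others did not rise in that order, such as Slc46a2 at 4.63, 4.83 and 4.53 and Foxn1 at 1.36, 1.55 and 1.25. Whether a share of cortical cells moves with the 7 genes was not tested.

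Thymic replicates 1 to 3 and thyroid replicate 1 shared a slide, and thyroid replicates 2 and 3 lay on another. On the shared slide alone, where the lone thyroid array is taken to vary like the thymic ones, the log2 differences were 7.09 for Il7, 3.77 for Tslp and 0.70 for Il15. They were -4.32 for Kitl, 1.96 for Flt3l, 1.83 for Ly75 and 7.56 for Tbata. A fit with the slide as a block gives the same differences by design, since the other slide held thyroid arrays alone, and is no second check. Over all ways of processing the direction of each gene stayed wherever it had a value, with adjusted p of at most 0.0336 in limma.

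**Figure D4:**
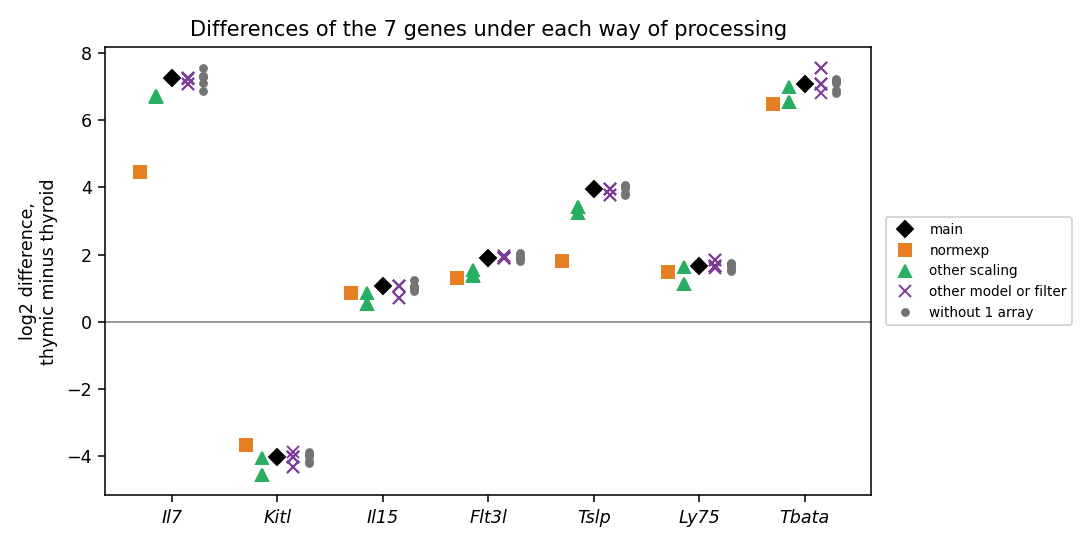
Log2 difference, thymic minus thyroid (y axis), of the 7 genes under each way of processing: as reported (black), normexp background correction (orange), other scalings (green), other models, filters or slide settings (purple) and each array left out in turn (grey). All points of a gene lie on 1 side of 0, and the widest spread is that of Il7, from 4.47 with normexp to 7.56.

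The receptors of these factors were measured in the same cells, although their usual carriers, lymphocytes and progenitors, were sorted out through CD45. Among 14 receptor chains and first signalling genes, 9 stood higher in thymic and 4 higher in thyroid samples, where 39.3% and 30.5% of all genes passed. Their median difference was 1.24 (all genes 0.10). Il7r, the chain shared by the receptors of interleukin 7 and Tslp, read -1.73, -1.77 and -1.51 in thymic cells and was above background on no thyroid array. The thymic excess was at least 19.8-fold. The fitted difference of 5.88 uses thyroid values below background and is not this bound. Il7r entered the fit through the thymic arrays alone, so its direction was set in advance and no p-value is given. Another probe of Il7r gave at least 3.44-fold, and a further one was above background on no array. Crlf2, the chain that makes the Tslp receptor together with Il7r, was lower in thymic cells, at 2.50 ± 0.17 against 3.56 ± 0.06, a difference of -1.06 ± 0.12 (SE).

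The chains used by interleukin 15 were all higher in thymic cells. Il15ra differed by 1.43 ± 0.21 (SE), Il2rg, the common gamma chain, by 1.36 ± 0.15, and Il2rb by 4.01 ± 0.15, with 2 of 3 thyroid arrays above background for the last. Il2ra, the high-affinity interleukin 2 chain, differed by 4.59 ± 0.14, also with 2 thyroid arrays above background. Kit, the receptor of Kit ligand, ran opposite to its ligand, with thymic values of 1.07, 0.74 and 0.83 over thyroid values of -0.37, -0.57 and 0.19, a difference of 1.13 ± 0.22 (SE; adjusted p = 0.00302, limma with Benjamini-Hochberg). Flt3 was faint, at -4.18 ± 0.12 against -5.81 ± 0.29 with 1 thyroid array above background, and its call was lost with normexp (0.30, adjusted p = 0.124). Downstream, Jak3, the kinase bound to the common gamma chain, read -0.58 ± 0.19 in thymic against 0.66 ± 0.48 in thyroid samples, a difference of -1.24 ± 0.25 (SE). Jak1 differed by -0.57, a call lost with quantile normalization (adjusted p = 0.131). The other downstream genes of the list were mixed. Stat5a was higher in thymic cells by 2.90 ± 0.19 (SE) and Stat3 by 0.78 ± 0.11, Stat5b differed by -0.38 ± 0.12, and Jak2 passed in neither direction as reported. The Stat3 call was lost with median centring and with the deposited values, and the Stat5b call with normexp and with quantile normalization. The summed thymocyte and B cell markers, given above, were also higher on the thymic arrays, and their part in these receptor signals was not tested.

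**Figure D5:**
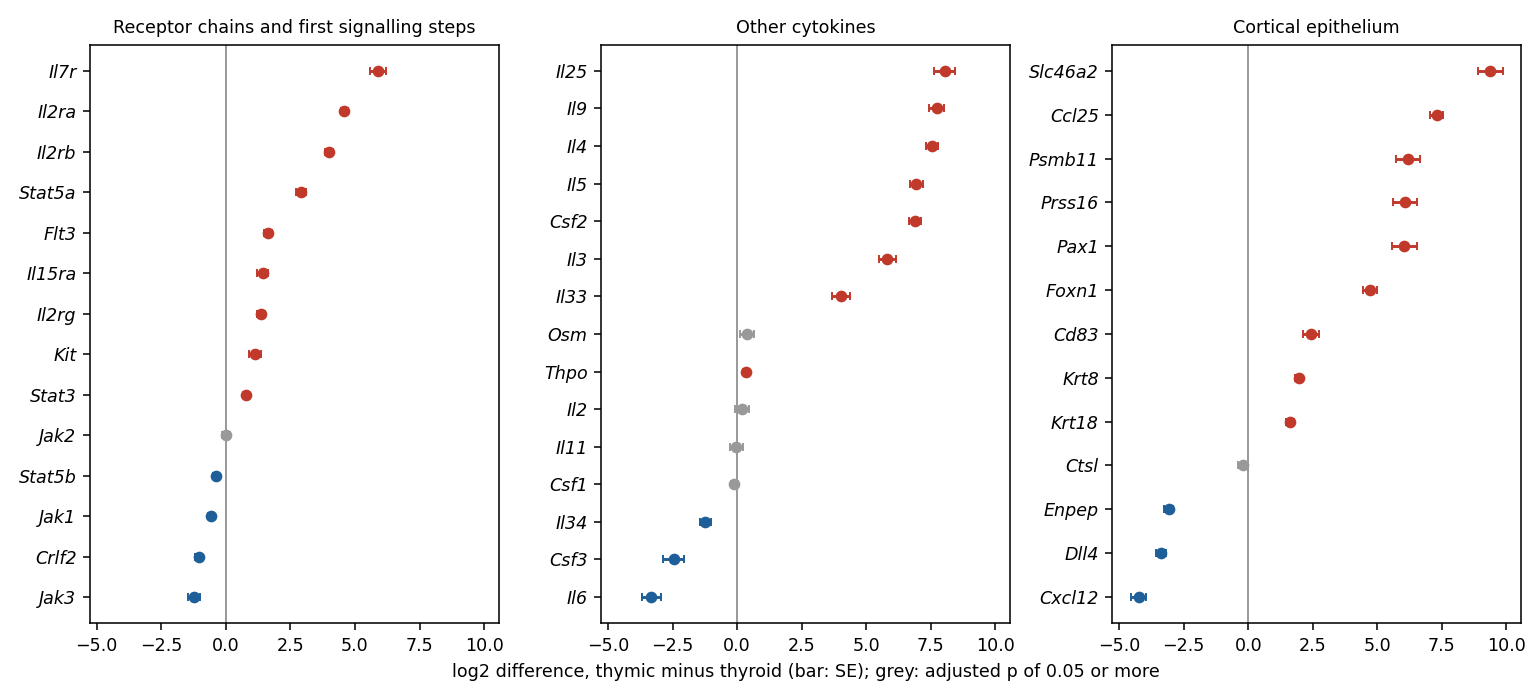
Log2 difference, thymic minus thyroid (x axis, bars are SE), of every tested gene of 3 lists: receptor chains and first signalling steps, other cytokines and cortical epithelium. Red genes were higher in thymic cells and blue in thyroid cells at an adjusted p under 0.05, grey ones passed in neither direction, and each list holds genes on both sides, from Slc46a2 at 9.38 to Cxcl12 at -4.25. Genes such as Il7r that were above background in no sample of a group are drawn as fitted, which is no bound.

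Among 15 tested cytokines outside the 7, 8 stood higher in thymic and 3 higher in thyroid samples, where 39.3% and 30.5% of all genes passed. Their median difference of 0.38 turned to -0.15 with median centring and -0.14 in the deposited value table. Among those higher in thymic cells were Il25, an epithelial cytokine also made by tuft cells, and Il9 and Il4, known as products of T helper cells. None of the 3 was above background on a thyroid array, so only bounds hold and their order is not known. The thymic excess was at least 67.6-fold for Il25, at least 49.6-fold for Il9 and at least 52.8-fold for Il4. Towards the thyroid cells, Il6, an inflammatory cytokine, stood at 1.60 ± 0.69 against -1.73 ± 0.34, a difference of -3.32 ± 0.36 (SE; adjusted p = 1.78e-04, limma with Benjamini-Hochberg). Csf3, the granulocyte growth factor, was at least 4.43-fold higher there, and Il34, a ligand of the macrophage receptor Csf1r, 2.35-fold. Like Kitl, these 3 factors were lower in thymic cells, also under each other scaling tried.

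Genes known from cortical epithelium were also compared. Of 13, 9 stood higher in thymic and 3 higher in thyroid samples, where 39.3% and 30.5% of all genes passed. Their median difference was 2.43. Whether the thymic sort held cortical cells was not tested. Slc46a2, a transporter gene of thymic stroma, was 664-fold higher, Ccl25, a chemokine that draws progenitors into the thymus, 158-fold, and Psmb11 72.8-fold. The thyroid-higher genes included signals that cortical epithelium gives to progenitors. Cxcl12, the chemokine ligand of Cxcr4, was 19.0-fold and Enpep, the surface enzyme known as Ly51, 8.48-fold higher in thyroid cells. Dll4, the Notch ligand that sets T cell fate, stood at -2.09 ± 0.12 in thymic and 1.31 ± 0.35 in thyroid samples. Cxcl12 read 0.08, 0.73 and 1.25 in thymic and 5.14, 4.85 and 4.80 in thyroid cells, a gap of the size and direction seen for Kitl (-4.25 ± 0.29 against -4.02 ± 0.20, SE). Endothelial cells are also known to express Cxcl12 and Dll4, and the part of the endothelial markers in these differences was not tested.

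Around Ly75, 5 of 7 genes of the mannose receptor family and of dendritic lectins were tested. Of these, 3 were higher in thymic cells and 1 in thyroid cells, where 39.3% and 30.5% of all genes passed. The thymic excess was at least 54.8-fold for Mrc1, the macrophage mannose receptor, and at least 21.7-fold for Cd207, the lectin langerin of Langerhans and other dendritic cells. Both, unlike Ly75, were above background on no thyroid array, so their direction was set in advance. Pla2r1, a phospholipase receptor, was 2.48-fold higher in thymic cells, and Cd302 was 2.66-fold higher in thyroid cells. Clec9a and Cd209a, lectins of dendritic cells, were above background on all arrays of neither group and were not tested.

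The NEDD8 pathway, which attaches the small protein Nedd8 to cullins, showed none of the large differences of Tbata. Of its 8 genes, 1 stood higher in thymic and 3 higher in thyroid samples, where 39.3% and 30.5% of all genes passed. Their median was -0.13. Nedd8 itself differed by -0.85 ± 0.11 (SE), Nae1 by -0.66 ± 0.14 and Uba3, the other subunit of the activating enzyme and the known partner of Tbata, by -0.44 ± 0.11. Ube2f, a conjugating enzyme, differed by 0.61 ± 0.11. With arrays centred on their medians, 7 of the 8 were higher in thyroid cells and Ube2f passed in neither direction (0.08, adjusted p = 0.553 in limma). With quantile normalization 3 were higher in each group, Cul3 and Cops5 joining Ube2f on the thymic side.

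Genes with the most similar course over the 6 arrays were found by the root mean square distance between profiles centred on their own means. The closest to Il7 were Galnt14 (0.26), Myo15b (0.29) and Crhbp (0.30), and to Tbata Lce1d (0.16), Bcl2a1b (0.19) and Tbx15 (0.21), all distances in log2 units. Lce1d and Tbx15 were above background on no thyroid array, so their distances rest on thyroid values below background. For Kitl they were Rftn2 (0.10), Cdh13 (0.11) and Nr5a2 (0.11), and for Tslp Cd300e (0.11), Cfap57 (0.12) and Gucy1b2 (0.12). Smaller differences had nearer neighbours, with Gsdmd (0.034), Slc41a3 (0.055) and Dst (0.069) for Il15, Itgb4 (0.059), Zmynd15 (0.082) and Rgs2 (0.083) for Flt3l, and Was (0.073), Slc9a3r1 (0.081) and Cyp4a12a (0.082) for Ly75. Only 2 genes, Lce1d among them, lay within 0.2 of Tbata and none within 0.2 of Il7, while 256 lay as near to Il15. With 2 groups of 3 arrays, such a distance mostly reflects the size of the group difference.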

How the data were processed

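Per the labels' protocols, RNA came from Trizol extraction and carried the dye Cy3. Per the file headers, arrays were read with Agilent Feature Extraction 10.5.1.1, probes are placed on mm8, and the deposited signal of each spot is an intensity that is already background-subtracted. The deposited value table is a linear ratio, the processed signal divided by the array's median, as a comparison with the scanner values showed. Per the file headers, each array held 43379 non-control spots of 41174 probes.

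From these, control spots and 67 to 151 outlier spots an array were dropped, repeated spots were averaged by probe, and log2 signals were scaled to the 75th percentile. A probe took a flag that 50% or more of its spots carried. Probes above background on all 3 arrays of a group were tested, and a gene was its tested probe with the highest mean. Names came from RefSeq's GRCm38.p6 table (24375 probes by accession, 6301 by symbol, 2426 by an older symbol, 8072 kept the file's name). Its coordinates were not used, and exons or UTRs at the mm8 positions are not given here. Probe sequences are those in the array files. The 2 groups were set against each other in limma 3.58.1 (R 4.3.3), by lmFit and eBayes with no covariate, two-sided and adjusted by Benjamini-Hochberg, a fit tested on simulated data. Files were read with Python 3.11.15 and pandas 2.3.3, and figures drawn with matplotlib 3.10.9.

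The 7 genes and the gene lists were chosen with earlier results of these data known. Named genes are the 7, up to 3 per direction with the largest differences past the threshold in each pathway list, the receptor chains of the cytokines, and the 3 nearest profiles to each of the 7. Of the marker lists, whose further results are in the closing section, only examples are named. Prss16, Foxn1, Clec14a, Cul3, Cops5, Cd3e, Cd4, Rgs5, Clec9a, Cd209a, Stat5a, Stat3, Stat5b and Jak2 were named after their values were seen. The alternatives were normexp, quantile and median scaling, the deposited ratios, no detection filter or one over all 6 arrays, the median of all probes of a gene, a slide block, the shared slide by itself, a replicate block, a trended and robust variance model, and each array left out in turn. The p-values measure the spread between these pooled samples.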

Additional observations from a re-analysis of the deposited data

How the results depend on the processing

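The 7 genes were recomputed under 17 settings, giving 117 differences, of which 117 kept their direction and passed the threshold. Not all of these are separate checks. The slide block repeats the differences of the shared slide by design. The replicate block, the other variance model and the missing detection filter return the reported differences and change only their errors and p-values. Il7 and Tslp have no value when only probes above background on all 6 arrays are used, since thyroid replicate 2 was not, so 4 genes were higher in thymic cells there. Leaving out each array gave log2 differences of 6.86 to 7.56 for Il7, 3.77 to 4.08 for Tslp, 0.93 to 1.24 for Il15, -4.19 to -3.86 for Kitl, 1.80 to 2.05 for Flt3l, 1.52 to 1.77 for Ly75 and 6.82 to 7.24 for Tbata. With all 6 arrays required, 5032 genes were higher in thymic cells against 8400 as reported, with fewer genes tested. The genes higher in thyroid cells numbered 11041 with median centring and 10965 with the deposited values, against 6515 as reported. Of all calls, 56.3% were thymic as reported, 48.0% with quantile normalization, 51.6% with normexp, 44.0% with all 6 arrays required, 35.6% with median centring and 35.8% with the deposited values, scalings that move all genes together. With a replicate block, 8053 and 5997 genes passed and all 7 calls were kept (adjusted p = 1.35e-04 for Il7, 1.98e-04 for Kitl and 0.00429 for Il15, limma). Deviations from the group means correlated at 0.0066, -0.067 and -0.054 for same-numbered arrays, and at 0.12 for thymic replicate 3 with thyroid replicate 2. Such correlations cannot show whether samples were handled in pairs. Signal over background limits the thyroid values of Il7 and Tslp.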

Other observations

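Further cytokines of the same list, chosen after their values were seen, had signals on the thymic arrays alone. Il5, the eosinophil growth factor, read -1.21, -1.26 and -1.18 in thymic cells, Csf2, the granulocyte and macrophage growth factor, -0.01, 0.11 and 0.10, and Il3 -2.22, -2.66 and -2.24. None was above background on a thyroid array, and the bounds were at least 27.2-fold for Il5, 63.9-fold for Csf2 and 12.2-fold for Il3. They entered the fit through the thymic arrays alone, so their direction was set in advance and no p-value is given. Il33, an alarm cytokine of barrier epithelium and endothelium, read -0.97 ± 0.44 (SD, n = 3) in thymic samples, 16.2-fold over the -4.99 ± 0.58 of thyroid samples, with all arrays above background.

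Among the 11 thymocyte markers tested, 10 were higher in thymic cells, such as Cd8a (at least 31.7-fold), and Cd8b1 was higher in thyroid cells by a log2 difference of -1.98. Over all genes 39.3% and 30.5% passed, shares that also stand beside the counts as reported below. Above background on no thyroid array were 3 thymocyte, 1 myeloid, 3 B cell and 2 medullary markers, and on no thymic array 2 follicular ones. The direction of these was set in advance. With normexp, quantile normalization, median centring or the deposited values, 7 of the 11 were higher in thymic cells, Cd3e and Cd4 being lost in each, and the median of 2.86 was 0.96 with normexp. Myeloid and dendritic markers split, with 7 of 10 higher in thymic cells (6 with each of these 4 alternatives) and Zbtb46, a dendritic factor also known from endothelium, at -1.74 ± 0.22 against 0.74 ± 0.12. Of 11 thyroid follicular markers, 9 were higher in thyroid cells. Of 11 fibroblast and mural markers, 2 were higher in thymic cells, Fbln1 and Dcn, and 9 passed in neither direction. The Dcn call was lost with median centring (0.87, adjusted p = 0.0660 in limma) and with the deposited values (0.88, adjusted p = 0.0634), and Rgs5 passed on the thymic side with normexp and with quantile normalization. All 8 B cell markers tested were higher in thymic cells, 6 with each of the 4 alternatives. Of 6 markers of thyroid C cells, the calcitonin-producing cells, 3 were higher in each group, with Chgb lost from the thymic side under median centring (-0.07, adjusted p = 0.746 in limma) and with the deposited values (-0.06, adjusted p = 0.784). Among them were Calca, which encodes calcitonin, at 8.87 in thyroid and 4.83 in thymic cells, and Calcb at 3.75 in thymic and -6.11 in thyroid cells.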
